A study of Homo sapiens with 21 samples.

Results

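Doxorubicin treatment and long passage of BJ cells were compared as 2 effects on gene expression. BJ is an established, finite-lifespan line of human skin fibroblasts. The doxorubicin effect is the change in cells at passage 11 (P11) given doxorubicin (DOX) at 50 ng/ml over cells at P11 given DMSO, the solvent control. The P33 effect is the change in untreated cells at P33 over P3. The difference is the doxorubicin effect minus the P33 effect, and it was tested gene by gene. Each of the 4 groups had 3 RNA-seq libraries, so 12 of the 21 libraries of the series were compared. The labels give no length of treatment and no measure of arrest, and they do not say whether the 3 libraries of a group came from separate cultures, so each p-value measures the spread among libraries, which may be technical. The study's title sets replicative against doxorubicin-induced senescence.

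Cellular senescence is a lasting exit from the cell cycle. In fibroblasts grown for many passages it follows telomere shortening, which the cell reads as DNA damage. Doxorubicin intercalates into DNA and traps topoisomerase II on broken DNA, which activates the same damage response. Both routes run through p53 and its target CDKN1A (p21), and through RB, which p16 keeps active by inhibiting cyclin-dependent kinases. Senescent fibroblasts are known for secreted cytokines and proteases, loss of lamin B1 and, in some settings, an interferon response.

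The 12 libraries held between 18174331 and 27194352 counted reads each. The DOX and DMSO libraries were counted differently from the passage libraries. Of 9429 genes nested within a longer gene of the same strand, 3950 received reads in at least 1 of the 6 DOX and DMSO libraries and 0 did so in the 15 passage libraries of the series. Levels are therefore compared only within each pair, and the 2 effects are compared as fold changes. A gene was tested if it passed the count filter in both pairs, which left 13520 of 61544 genes. The baselines also differ, P3 for one effect and P11 for the other. Levels are in CPM, the usual rate of counts over the scaled library size, and in bulk libraries fewer cells expressing a gene and less RNA per cell cannot be told apart.

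The P33 effect was the broader one. By edgeR's quasi-likelihood test at an adjusted p under 0.05, 9991 genes (73.9% of those tested) differed between P33 and P3, against 5911 (43.7%) between DOX and DMSO. The median absolute log2 fold change was 0.424 for the P33 effect and 0.202 for the doxorubicin effect. The 2 effects themselves differed for 8110 genes (60%): 3837 (28.4%) had a positive difference, meaning higher or less lowered with DOX than at P33, and 4273 (31.6%) a negative one. Of those 8110 genes, 4116 had only the P33 effect past the threshold, 838 only the doxorubicin effect, 3017 both and 139 neither.

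Both effects passed the threshold for 4639 genes, and 3320 of these (71.6%) moved in 1 direction. Shared rises numbered 1654 (12.2% of genes tested), which is 32% of the P33 rises and 58.8% of the DOX rises. Shared falls numbered 1666 (12.3%), or 34.5% of the P33 falls and 53.7% of the DOX falls. A further 552 genes (4.08%) were higher with DOX and lower at P33, and 767 (5.67%) lower with DOX and higher at P33. With genes that overlap another on the same strand left out, 9303 genes were tested and the shared rises came to 1099 and the genes higher with DOX and lower at P33 to 329. These lower counts in part reflect the smaller number of genes tested. The count filter and the baseline moved several 2-fold counts by over 1.5 times, with values in the closing section. Changes of at least 2-fold were a rise for 1583 genes (11.7%) and a fall for 739 (5.47%) at P33, and a rise for 415 (3.07%) and a fall for 456 (3.37%) with DOX. The difference was at least 2-fold and positive for 630 (4.66%) and negative for 1508 (11.2%). Where each effect was at least 2-fold, 228 genes rose in both (1.69%), 145 fell in both (1.07%), 24 rose with DOX and fell at P33 (0.178%), and 71 fell with DOX and rose at P33 (0.525%). Across the 13520 genes, which are not independent replicates, the log2 fold changes of the 2 effects had a Pearson r of 0.335 and a Spearman rho of 0.321; the 2 effects share no library.

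**Figure D1:**
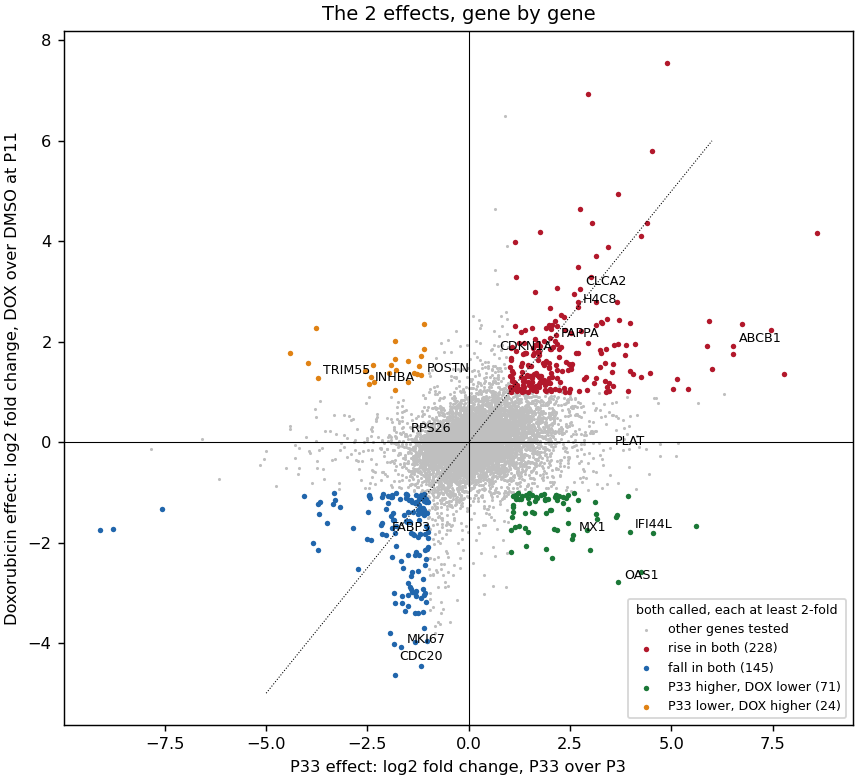
Log2 fold change of each of the 13520 genes tested, at P33 over P3 (horizontal axis) and with DOX over DMSO at P11 (vertical axis); coloured points are genes with both effects past the threshold and each at least 2-fold, and the dotted line marks equal effects. The 145 shared falls run down to the cell-cycle genes MKI67 and CDC20, and the interferon-stimulated genes OAS1, IFI44L and MX1 lie among the 71 genes higher at P33 and lower with DOX.

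Genes of DNA replication and cell division fell under both effects, and most of the mitotic ones fell further with DOX. Of 53 G2 and M phase genes tested, 49 fell at P33 and 47 fell with DOX, 45 in both, against 35.7% and 22.9% of all genes. The median log2 fold change was -0.95 at P33 and -1.77 with DOX, and the difference was negative for 38 and positive for 8 of the 53. With P11 in place of P3 as the baseline of the passage effect, the median difference went from -0.78 to -1.38. Of 42 S phase genes, 34 fell at P33 and 35 with DOX, with medians of -0.54 and -0.91.

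MKI67 (chr10:128096659-128126423, hg38), the Ki-67 proliferation antigen, stood at 539, 461 and 517 CPM in the P3 libraries and 164, 160 and 155 at P33. In the DMSO libraries it stood at 150, 163 and 129 CPM, and with DOX at 9.84, 6.83 and 9.16. Neither pair of groups overlapped. The fall was 3.17-fold at P33 and 17-fold with DOX, and the difference was -2.42 (SE 0.127) on the log2 scale (adjusted p = 5.56e-16). CDC20, the activator of the anaphase-promoting complex, went from 37.2, 32.7 and 38 CPM at P3 to 9.82, 9.83 and 10.6 at P33. It went from 5.06, 4.89 and 6.13 CPM with DMSO to 0.12, 0.249 and 0.655 with DOX, where few reads remained; its difference was -2.18, or -3.40 with P11 as the baseline. The mitotic kinesin KIF20A, the spindle protein DLGAP5 and thymidine kinase TK1 had the same order, with differences of -1.86, -1.54 and -1.39, all past the threshold.

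RRM2, the small subunit of ribonucleotide reductase, parted the effects more than most of this group. It fell from 124 to 132 CPM at P3 to between 61.7 and 78.4 at P33, and from 38.9 to 40.7 CPM with DMSO to between 2.57 and 3.14 with DOX. Its log2 difference was -2.96 (SE 0.13, adjusted p = 8.92e-18). Exceptions within S phase were PCNA, the sliding clamp of DNA polymerase, and TYMS, which makes thymidylate. PCNA fell at P33 by 0.47 on the log2 scale and rose with DOX by 0.96, and TYMS fell by 0.71 and rose by 0.87. PCNA shares sequence with an overlapping gene of its strand, which makes its count uncertain.

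Promoters of late cell-cycle genes are known for CCAAT boxes and for the CHR element, through which the DREAM and MuvB complexes act. The windows of 250 bases before the RefSeq start (GRCh38.p14) are shown for MKI67, chr10:128126424-128126673 on the minus strand, and for CDK1, the mitotic kinase, chr10:60778081-60778330 on the plus strand. They were chosen because no annotated exon lies in them, and capitals mark matches to CCAAT or to the CHR letters TTTGAA on either strand.
MKI67: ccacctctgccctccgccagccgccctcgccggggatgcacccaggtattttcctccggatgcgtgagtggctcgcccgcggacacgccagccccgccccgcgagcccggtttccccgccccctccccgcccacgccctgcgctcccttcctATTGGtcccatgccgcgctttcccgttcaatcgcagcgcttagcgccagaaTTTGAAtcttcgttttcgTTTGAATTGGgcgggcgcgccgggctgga
CDK1: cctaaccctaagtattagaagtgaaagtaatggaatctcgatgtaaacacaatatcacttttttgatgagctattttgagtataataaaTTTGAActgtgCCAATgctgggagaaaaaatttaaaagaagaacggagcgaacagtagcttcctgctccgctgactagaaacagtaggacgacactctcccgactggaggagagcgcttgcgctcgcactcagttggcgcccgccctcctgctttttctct
In MKI67 one CHR match and one CCAAT match run into each other at the end of the window. CDK1 stood at 34, 37.3 and 37.9 CPM at P3 and 21.8, 19.1 and 23.5 at P33. With DMSO it stood at 16.4, 13.9 and 14.3 CPM and with DOX at 1.27, 1.35 and 1.11. The log2 difference was -2.81 (SE 0.17, adjusted p = 1.53e-14).

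A match to CHR (TTTGAA or TTCGAA, both strands) stood in 56.8% of the 44 G2 and M phase promoters in the RefSeq table and in 24% of the 104 promoters of genes that fell at least 2-fold in both effects. The share was 14.6% over all 27305 promoters and 9.71% over the 10186 of tested genes. CCAAT matches stood in 68.2%, 42.3%, 33% and 35% of these sets in the same order. The G2 and M phase list and the genes that fell in both share members, such as MKI67, CDC20 and DLGAP5. Their shares are therefore not independent. All these shares are counts of letters, not of bound sites.

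Genes of the nuclear envelope and chromatin fell together under both effects: 24 of 29 tested fell at P33 and 22 with DOX, 19 in both. Falls made up 35.7% and 22.9% of all genes. LMNB1 (lamin B1), whose loss is a common marker of senescence, stood at 41.9, 43 and 47.2 CPM at P3 and at 15.7, 16 and 15.2 at P33. It stood at 19.4, 16.6 and 17.2 CPM with DMSO and at 2.23, 3.04 and 2.42 with DOX, a 6.99-fold fall against 2.81-fold at P33 (difference -1.31, adjusted p = 9e-09). LMNA, which encodes lamins A and C, went the other way in size: it fell by 1.22 on the log2 scale at P33 and by 0.26 with DOX. HMGN2, a nucleosome-binding protein, fell by 1.12 at P33 and was 0.15 higher with DOX (adjusted p = 0.0243), a rise that was lost without DMSO replicate 1 or 2 or DOX replicate 3 (adjusted p between 0.0709 and 0.148). Of 30 homologous recombination and Fanconi genes, 17 fell and 5 rose at P33, and 16 fell and 2 rose with DOX, against falls of 35.7% and 22.9% of all genes. BRCA1 and FANCD2 fell in both, while BRCA2 rose by 0.62 at P33 and fell by 0.47 with DOX on the log2 scale.

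The p53 targets rose under both effects. Of 44 tested, 30 rose at P33 and 40 with DOX, against 38.2% and 20.8% of all genes, and 27 rose in both. The median log2 fold change was 0.58 at P33 and 0.74 with DOX. CDKN1A, the p21 inhibitor of cyclin-dependent kinases, was at 194, 204 and 192 CPM at P3 and at 302, 299 and 300 at P33. With DMSO it was at 139, 141 and 146 CPM, and with DOX at 496, 495 and 458. The groups did not overlap in either pair, and the rise of 3.4-fold with DOX exceeded that of 1.53-fold at P33 (log2 difference 1.15, SE 0.0702, adjusted p = 1.91e-14).

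MDM2, the ubiquitin ligase that p53 induces against itself, rose 2.04-fold at P33 and 2.82-fold with DOX, although it overlaps another gene. GADD45A, a damage-induced arrest gene, rose by 1.32 and 1.40 on the log2 scale, and its difference of 0.08 did not pass (adjusted p = 0.482). FDXR, the mitochondrial ferredoxin reductase, rose with DOX alone in the tests: it was at 11.4, 11.4 and 12.2 CPM with DMSO and 33.9, 32.6 and 29.1 with DOX, and at 25.8, 29.5 and 26.4 CPM at P3 and 22.8, 27.4 and 24.6 at P33. Its difference was 1.58 (adjusted p = 3.99e-13). Another 6 targets, BAX, TP53I3, AEN, TRIAP1, KITLG and PLXNB2, rose with DOX and fell at P33. Falls at P33 depend on the baseline here: against P11, 2 of the 44 targets fell and 33 rose, and KITLG, the KIT ligand, gave 0.05. Over the list the difference was positive for 21 and negative for 10 with a median of 0.26, and over the 33 members without same-strand overlap it was positive for 14 and negative for 8 with a median of 0.08.

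CDKN2B, which encodes the inhibitor p15, also rose under both effects, but more at P33: from 11.6, 12.9 and 11.4 CPM to 44.4, 36.4 and 53.2, against 18.2, 18.4 and 16.8 with DMSO and 33.2, 35.1 and 39.3 with DOX. The difference was -0.89 (SE 0.159, adjusted p = 2e-05), and -0.52 with P11 as the baseline. CDKN2A, the gene of p16 and ARF, was lower at P33 than at P3 by 0.42 (adjusted p = 0.00137), with libraries at 12.1, 10.8 and 14.1 CPM against 14.7, 17.4 and 17.4. With DOX it was at 5.62, 5.34 and 3.88 CPM against 5.76, 4.83 and 5.04 with DMSO (log2 fold change -0.08, adjusted p = 0.727). Gene counts do not separate the p16 and ARF transcripts, and P33 against P11 gave 0.02 for CDKN2A.

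Among the largest shared rises were a p53-linked surface protein, a protease and histones. CLCA2, a membrane protein known as a p53 target, was at 4.64, 5.05 and 5.01 CPM at P3 and 34.4, 32.6 and 32.1 at P33, and at 20, 19.5 and 20 CPM with DMSO and 163, 163 and 169 with DOX. The rises were 6.74-fold and 8.31-fold (difference 0.30, adjusted p = 0.0257, a call that was lost when P3 replicate 2 or 3 or P33 replicate 3 was left out). PAPPA, the metalloprotease that cleaves IGF-binding proteins, was at 90.4, 91.7 and 86.2 CPM at P3 and 411, 365 and 398 at P33. It was at 123, 130 and 113 CPM with DMSO and 516, 457 and 506 with DOX, so the rises were 4.38-fold and 4.05-fold (difference -0.11, SE 0.0805, adjusted p = 0.236). With P11 as the baseline the difference of PAPPA was -0.36 and passed the threshold.

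H4C8, a histone H4 gene, was at 7.97, 6.85 and 7.44 CPM at P3 and 46, 46.9 and 50.2 at P33. It was at 2.77, 2.09 and 3.84 CPM with DMSO and 17.9, 20.3 and 18 with DOX, with rises of 6.42-fold and 6.44-fold. H2BC4, a histone H2B gene, rose 4.18-fold and 5.06-fold. Messenger RNAs of such histones normally end in a stem-loop and not in a poly(A) tail, and these libraries were poly(A)-selected. Of 59 histone genes listed, 17 passed the count filter, several through their higher groups, so their count of rises is not used. Also shared were rises of the tight-junction protein CLDN1, the adhesion molecule NRCAM, the amyloid precursor-like protein APLP1 and LRATD2, which ranged from 4.87-fold to 8.82-fold at P33 and from 5.03-fold to 6.93-fold with DOX. Of these 4, only CLDN1 had a difference past the threshold (-0.80, adjusted p = 0.00369, and -1.55 with P11 as the baseline).

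**Figure D2:**
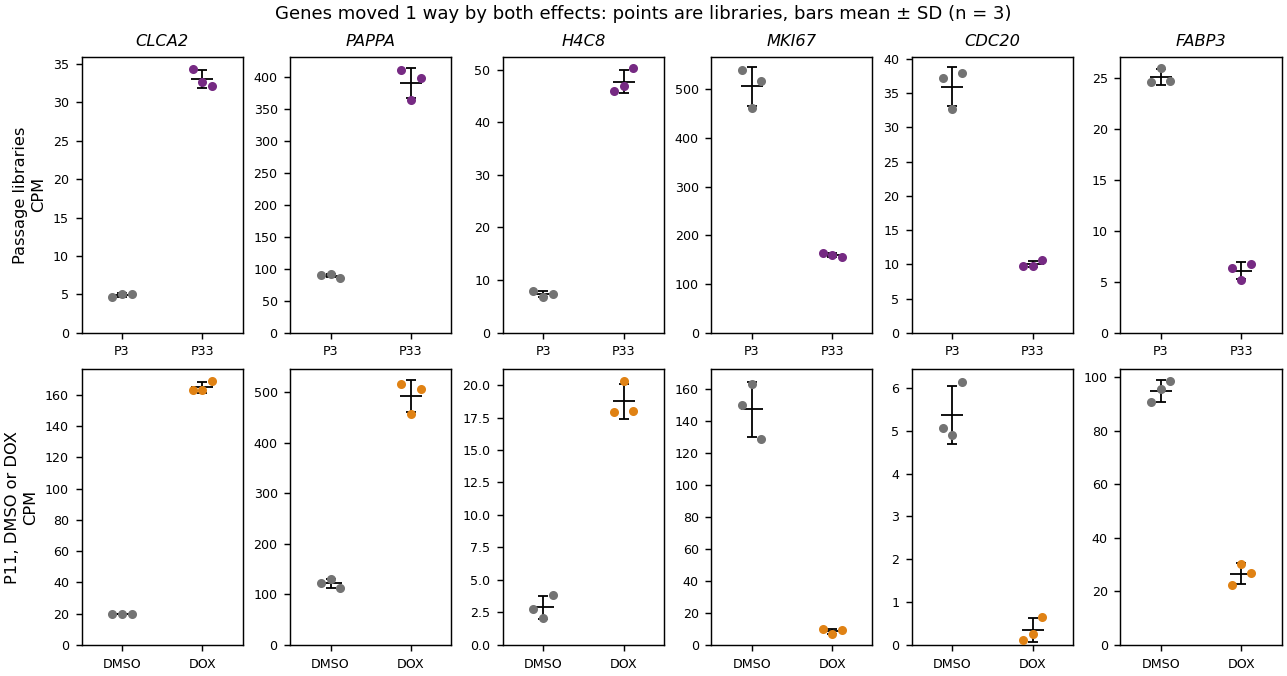
Level in CPM of 3 genes that rose (CLCA2, PAPPA, H4C8) and 3 that fell (MKI67, CDC20, FABP3) under both effects, with P3 and P33 above and DMSO and DOX below; points are libraries, bars the mean and SD (n = 3). In each panel the 3 libraries of one group lie apart from those of the other.

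Shared falls outside the cell cycle included MMP1, the interstitial collagenase often listed among secreted senescence factors. MMP1 was at 1234, 1361 and 1325 CPM at P3 and 309, 256 and 302 at P33, and at 938, 960 and 1007 CPM with DMSO and 294, 317 and 309 with DOX. It fell 4.52-fold and 3.16-fold. FABP3, a fatty acid carrier, fell 4.1-fold at P33 and 3.59-fold with DOX, with a difference of 0.19 (adjusted p = 0.307); with P11 as the baseline the difference was 1.27. SCARA3, a scavenger receptor, fell 3.46-fold and 4.2-fold.

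Genes of cholesterol synthesis also fell together: 21 of 24 tested fell at P33 and 20 with DOX, against 35.7% and 22.9% of all genes. Of the 24, 18 fell in both and none rose in either. The medians were -0.82 and -0.48. INSIG1, which holds back the sterol sensor, was at 123, 122 and 127 CPM at P3 and 57.1, 43.3 and 50.7 at P33, and at 231, 206 and 221 CPM with DMSO and 105, 118 and 94.7 with DOX. Neither pair overlapped, and the difference of 0.24 did not pass (adjusted p = 0.151), while with P11 as the baseline it was 0.91 and did. ACAT2, which makes acetoacetyl-CoA, fell more at P33 (-1.79 against -0.48). Over the list the difference was positive for 12 genes and negative for 2 with a median of 0.24, and with P11 as the baseline 20 were positive and the median was 0.65.

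**Figure D3:**
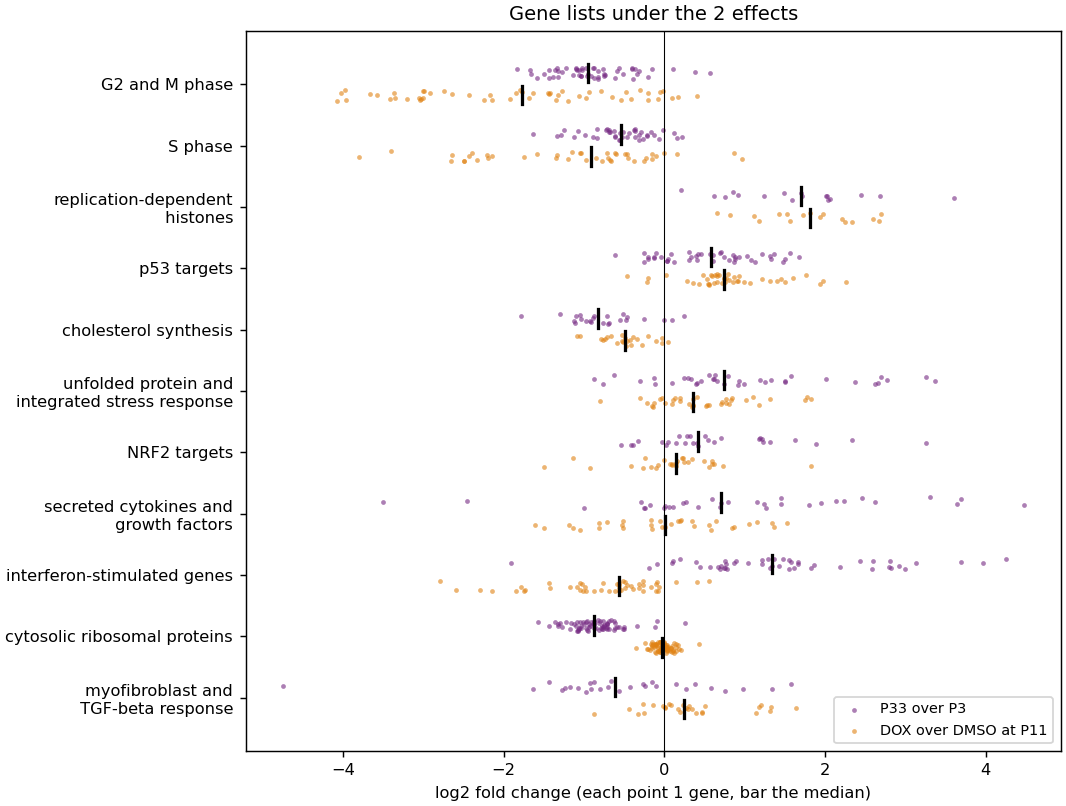
Log2 fold change of every tested member of 11 gene lists (points) with the median of each list (black bar), at P33 over P3 (purple) and with DOX over DMSO at P11 (orange). Several histone genes and some cytokine genes passed the count filter through their higher groups. The rises shown for those lists are therefore in part set by that filter. Most cell-cycle and cholesterol genes lie below 0 and most p53 targets above 0 under both effects; the medians of the interferon-stimulated genes are 1.34 and -0.57, and those of the ribosomal protein genes -0.87 and -0.03.

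Interferon-stimulated genes parted the 2 effects most sharply. Of 49 tested (of 55 listed), 44 were higher at P33 and 1 was lower, against 38.2% and 35.7% of all genes. With DOX 34 were lower and 1 was higher, against 22.9% and 20.8%. Against P11 in place of P3, 40 were higher at P33 and 5 lower, with a median of 0.84 in place of 1.34. With P3 as the baseline the exceptions were shared: LGALS9, a galectin, fell in both and TRIM22, which is also a p53 target, rose in both. The difference was negative for 45 and positive for none, with a median of -1.82 against -0.04 over all genes tested, and 29 of the 49 rose at P33 and fell with DOX. With P11 as the baseline 42 differences were negative, with a median of -1.31. Of the 8 genes with the largest negative difference named by rule, 6 (OAS1, IFI44L, CMPK2, BST2, OAS2, MX1) are on this list.

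OAS1 (chr12:112905856-112933219) makes the second messenger that activates RNase L. It was at 3.67, 3.56 and 5.98 CPM at P3 and 58.2, 59 and 49.2 at P33. It was at 13.9, 15.1 and 15.9 CPM with DMSO and 2.03, 2.34 and 2.11 with DOX. The groups did not overlap in either pair: OAS1 was 12.9-fold higher at P33 and 6.9-fold lower with DOX. The log2 difference was -6.47 (SE 0.458, adjusted p = 5.95e-13).

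MX1, a GTPase that blocks viral replication, was at 91.7, 73.2 and 137 CPM at P3 and 598, 672 and 532 at P33, and at 203, 211 and 214 CPM with DMSO and 59.3, 58.6 and 56.5 with DOX. Its difference was -4.43 (SE 0.409, adjusted p = 1.66e-10). RSAD2 (viperin), at low levels, was at 1.28, 0.689 and 1.46 CPM at P3 and 22.6, 23.8 and 17.6 at P33, and at 4.4, 4.35 and 5.21 CPM with DMSO and 0.956, 0.698 and 0.604 with DOX. BST2 (tetherin), which holds budding virus at the cell surface, rose 7.56-fold at P33 and fell 3.35-fold with DOX. CMPK2, a nucleotide kinase encoded beside RSAD2, rose 7.96-fold and fell 4.41-fold. P3 replicate 3 was the highest P3 library for OAS1, MX1, IFI44L, RSAD2 and BST2, and without it the difference was -6.73 for OAS1 and -4.71 for MX1.

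IRF7, a transcription factor that amplifies the response, rose by 1.66 at P33 and fell by 1.09 with DOX on the log2 scale. OAS1, MX1, RSAD2 and CMPK2 overlap genes on the opposite strand, with no strand setting given in the sources used here.

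**Figure D4:**
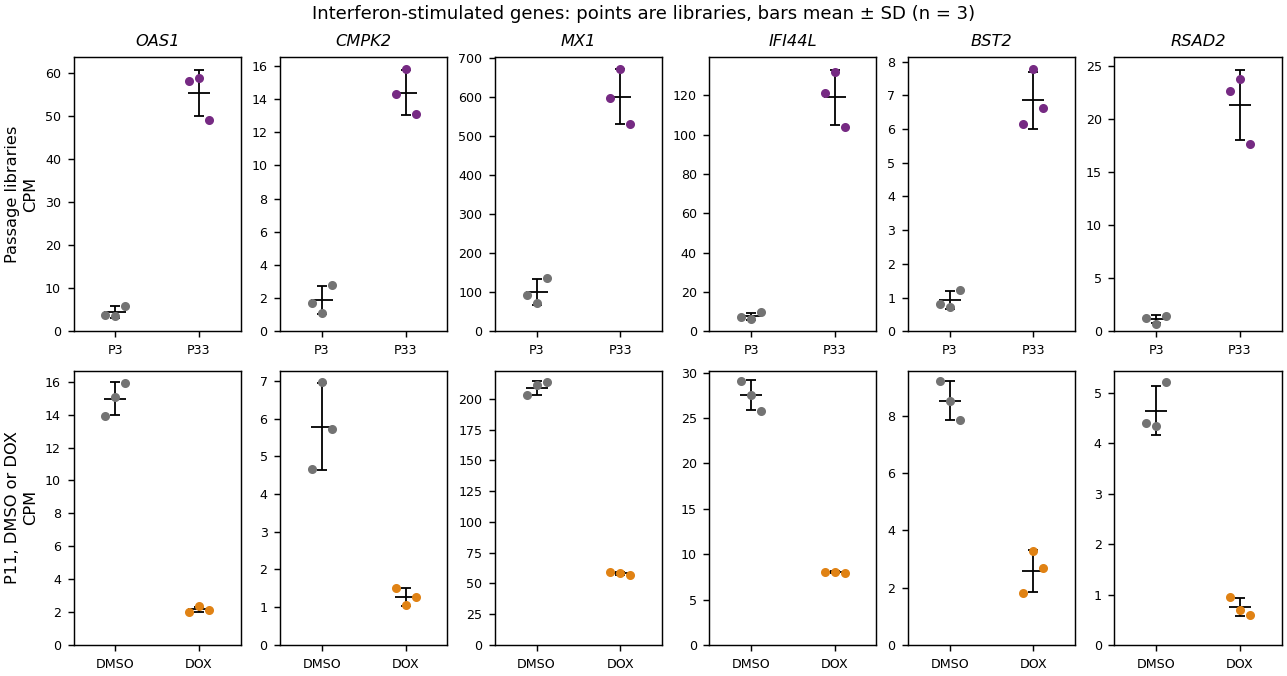
Level in CPM of OAS1, CMPK2, MX1, IFI44L, BST2 and RSAD2 in each library, P3 and P33 above, DMSO and DOX below; points are libraries, bars the mean and SD (n = 3). In all 6 genes the P33 libraries lie above the P3 libraries and the DOX libraries below the DMSO libraries.

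Interferon signalling acts on these genes through the interferon-stimulated response element (ISRE). IFI44 is printed as an example with an ISRE match that moved in opposite directions. Its 250 bases before the RefSeq start hold no annotated exon (GRCh38.p14, chr1:78649539-78649788, plus strand). Capitals mark the match to the ISRE, searched as TTTC, a pair of any bases and TTTC again.
IFI44: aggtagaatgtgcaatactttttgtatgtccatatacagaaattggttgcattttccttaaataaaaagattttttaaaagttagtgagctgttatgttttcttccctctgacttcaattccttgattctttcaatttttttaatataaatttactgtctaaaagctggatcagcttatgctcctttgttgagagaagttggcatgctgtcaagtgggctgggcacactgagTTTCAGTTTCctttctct
The match begins 18 bases before the start. IFI44 was at 21.3, 18.9 and 31.8 CPM at P3 and 133, 138 and 117 at P33, and at 29.9, 30.4 and 29.6 CPM with DMSO and 15.2, 15 and 13.2 with DOX (difference -3.49, SE 0.299, adjusted p = 3.38e-11). On both strands, an ISRE match stood in 50% of the 40 promoters of the list in the RefSeq table and in 14.9% of the 47 promoters of genes at least 2-fold higher at P33 and lower with DOX. The share was 3.07% over all promoters and 2.49% over those of tested genes. The list and the genes that moved in opposite directions share members, such as IFI44L and BST2, so their shares are not independent. IFI44L and BST2 each had a match, and none was found for OAS1, CMPK2, MX1 or RSAD2. Not every gene of the list had a promoter to search.

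Among the secreted cytokines and growth factors tested, more rose at P33 than with DOX. Of 33 tested (of 45 listed), 21 rose and 6 fell at P33, against 38.2% and 35.7% of all genes. With DOX 12 rose and 11 fell, against 20.8% and 22.9%. The difference was negative for 19 and positive for 6 (median -0.95), against 31.6% and 28.4% of all genes. Members such as CXCL8, CXCL2 and IL1A had few reads at P3 and passed the count filter through P33. The counts of rises at P33 and of negative differences are therefore in part set by that filter. CXCL8 (interleukin 8), a neutrophil attractant, was at 0.425, 0.344 and 0.486 CPM at P3 and 5.13, 4.01 and 6.53 at P33, and at 2.64, 2.44 and 2.35 CPM with DMSO and 1.04, 1.05 and 0.503 with DOX. It rose at P33 and fell with DOX, with a difference of -5.14 (SE 0.416, adjusted p = 9.45e-12). IL6 was at 4.6, 4.48 and 3.06 CPM at P3 and 8.63, 5.38 and 7.13 at P33, and at 11.7, 11.4 and 12.7 CPM with DMSO and 7.41, 8.88 and 8.66 with DOX (difference -1.31, adjusted p = 1.97e-05).

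IL1A, the membrane-bound interleukin 1, rose under both effects: from 0.387, 0.383 and 0.243 CPM to 8.68, 6.5 and 7.99 at P33, and from 4.22, 4.35 and 3.72 CPM to 10, 10.5 and 11.3 with DOX. Its difference of -3.10 became -1.16 with P11 as the baseline. EREG, an EGF receptor ligand, rose 9.87-fold at P33, from 124, 118 and 124 CPM to 1246, 1057 and 1316. With DOX it was at 93.6, 100 and 90.2 CPM against 111, 103 and 104 (adjusted p = 0.223). HGF, the hepatocyte growth factor, rose by 2.14 at P33 and fell by 1.05 with DOX on the log2 scale. CXCL12, the stromal chemokine, fell under both, 11.3-fold at P33 and 3.06-fold with DOX. GDF15 rose in both, 5.49-fold and 1.79-fold, but overlaps another gene on its strand.

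Genes of the cytosolic ribosome fell at P33 and hardly moved with DOX. Of 73 tested, 70 fell at P33 and none rose, against 35.7% and 38.2% of all genes, with a median of -0.87. With DOX 8 fell and 2 rose, against 22.9% and 20.8% of all genes. The other 63 did not pass with DOX, and the median there was -0.03. The difference was positive for 70 and negative for none (median 0.85), and for 36 of the 36 that overlap no gene on the same strand. RPS26, a small-subunit protein, was at 376, 400 and 372 CPM at P3 and 145, 121 and 120 at P33. It was at 288, 258 and 324 CPM with DMSO and 290, 321 and 336 with DOX, where the groups overlapped (log2 fold change 0.12, adjusted p = 0.173, or 0.21 and 0.0262 without DMSO replicate 3). The difference was 1.69 (SE 0.102, adjusted p = 1.47e-14). With P11 as the baseline 69 of 73 were positive and the median was 0.51, and RPS26 gave 0.99. RPL22, RPL23 and RPS29 were the 3 with no difference past the threshold. Ribosomal protein genes have many processed copies in the genome, so their counts depend on how such reads were assigned.

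Contractile and matrix genes that answer to TGF-beta also parted the effects. Of 28 tested, 19 fell and 7 rose at P33, against 35.7% and 38.2% of all genes. With DOX 15 rose and 5 fell, against 20.8% and 22.9%. The difference was positive for 22 and negative for 4 (median 0.81), against 28.4% and 31.6% of all genes. Against P11 in place of P3, 14 fell and 11 rose at P33, with a median of -0.33 in place of -0.62. That baseline gave 17 positive and 5 negative differences (median 0.54). MYL9, the smooth-muscle myosin light chain, was at 1266, 1262 and 1211 CPM at P3 and 397, 450 and 356 at P33, and at 691, 725 and 837 CPM with DMSO and 720, 645 and 910 with DOX, where the groups overlapped. CCN2 (connective tissue growth factor) rose by 0.27 at P33 and by 1.64 with DOX. COL1A1, the main collagen chain, fell by 0.80 at P33 and rose by 0.51 with DOX. POSTN (periostin), a matrix protein, was at 24.2, 24.8 and 24.6 CPM at P3 and 12.4, 8.17 and 11.8 at P33, and at 88.2, 81.9 and 76.7 CPM with DMSO and 209, 211 and 200 with DOX (difference 2.51, SE 0.124, adjusted p = 1.63e-16). CNN1 (calponin) turned its direction with P11 as the baseline, with a difference of -0.29 in place of 0.86.

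INHBA, the activin A subunit of the TGF-beta family, was at 67.3, 77.8 and 69 CPM at P3 and 14.5, 10.7 and 13.8 at P33. It was at 41.9, 39.9 and 43.9 CPM with DMSO and 93.9, 100 and 85.2 with DOX. It fell 5.49-fold at P33 and rose 2.22-fold with DOX (difference 3.61, SE 0.116, adjusted p = 6.12e-21). TRIM55, a muscle ubiquitin ligase, had the largest positive difference named by rule. It was at 29.7, 29 and 28.6 CPM at P3 and 1.53, 2.64 and 2.46 at P33, and at 4.09, 3.57 and 3.32 CPM with DMSO and 8.37, 9.33 and 9.26 with DOX (difference 5.01, SE 0.163). The protocadherin PCDH7, the keratin KRT18, the placental growth factor PGF, PALM and PSG1 likewise fell at P33 and rose with DOX, with differences from 1.98 to 3.33. With P11 as the baseline that of PGF was 1.22 and that of PALM 1.60. PSG1 belongs to a family of near-identical genes, so its count is uncertain.

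Other large positive differences came from the P33 effect nearly alone. EPB41L3, a membrane skeleton protein, fell 13.7-fold at P33 and rose 1.42-fold with DOX. PENK, the enkephalin precursor, fell 13.7-fold at P33, and with DOX was at 17.1, 21.4 and 19.9 CPM against 18.1, 18.5 and 21 (adjusted p = 0.913). Its difference of 3.79 was 2.35 with P11 as the baseline. C1orf115 and CNTN3, a neural adhesion molecule, fell 18.1-fold and 15.2-fold at P33, and with DOX they fell 1.43-fold and 1.16-fold, the latter lost without DMSO or DOX replicate 2.

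**Figure D5:**
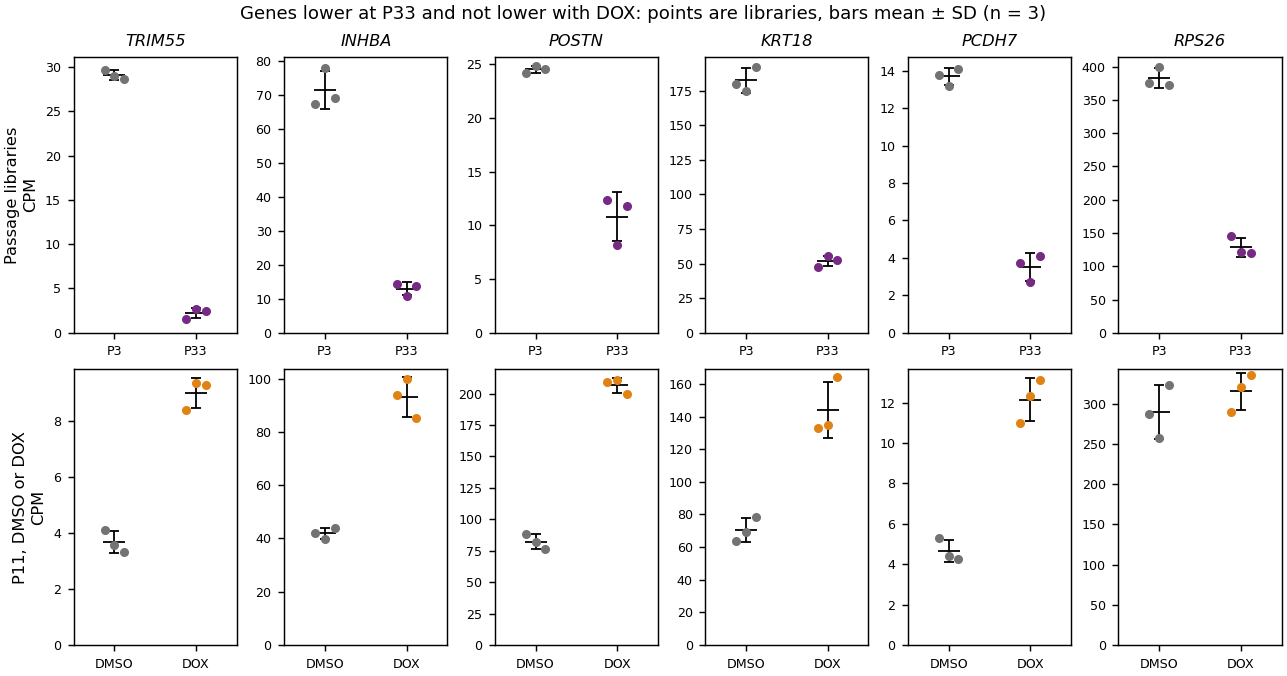
Level in CPM of TRIM55, INHBA, POSTN, KRT18, PCDH7 and RPS26 in each library, P3 and P33 above, DMSO and DOX below; points are libraries, bars the mean and SD (n = 3). All 6 genes are lower at P33 than at P3; the first 5 are higher with DOX than with DMSO, and for RPS26 the DMSO and DOX libraries overlap.

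Of 29 secreted proteases, inhibitors and IGF-binding proteins tested, 16 rose and 7 fell at P33, against 38.2% and 35.7% of all genes. With DOX 13 rose and 8 fell, against 20.8% and 22.9%. The difference was positive for 9 and negative for 14, against 28.4% and 31.6% of all genes. PLAT, the tissue plasminogen activator, was at 94.6, 85.9 and 90.2 CPM at P3 and 1002, 999 and 1017 at P33, an 11.1-fold rise. With DOX it was at 38.4, 40.8 and 36.4 CPM against 44.2, 38.8 and 42.9 with DMSO, which overlapped (adjusted p = 0.176), and the difference was -3.60 (SE 0.0999, adjusted p = 1.51e-22). PAPPA2, a relative of PAPPA, rose under both, by 6.53 at P33 and 1.75 with DOX. PAPPA also rose under both, but by similar amounts. PAPPA2 rested on few reads at P3, at 0.232, 0.115 and 0.243 CPM. MMP3 (stromelysin) fell by 0.31 at P33 and rose by 1.31 with DOX.

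ABCB1, the efflux pump that exports doxorubicin, was at 0.657, 0.536 and 0.389 CPM at P3 and 44.4, 55.9 and 49.5 at P33. It was at 0.176, 0.477 and 0.344 CPM with DMSO and 1.39, 0.848 and 1.36 with DOX. It rose 91.8-fold at P33 and 3.78-fold with DOX, the groups not overlapping in either pair (difference -4.60, SE 0.552, adjusted p = 2.85e-08). Few reads underlie the levels at P3 and with DMSO, and ABCB1 passed the count filter through the higher group of each pair. Its fold changes are therefore uncertain in size. TOP2A, the topoisomerase II form that doxorubicin traps in dividing cells, fell by 0.62 at P33 and 2.43 with DOX, and its paralogue TOP2B by 0.59 and 0.31. Both topoisomerase genes overlap another gene of their strand.

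Stress-response genes rose in both, further at P33. Of 37 members of the list for the integrated stress response and unfolded proteins, 30 rose at P33 and 26 with DOX, 25 in both. Rises made up 38.2% and 20.8% of all genes. The list medians were 0.74 and 0.36. The difference was negative for 23 and positive for 6, against 31.6% and 28.4% of all genes. PSAT1, of serine synthesis, was at 16.5, 16 and 15.6 CPM at P3 and 94.8, 100 and 109 at P33, and at 39, 33.7 and 37.2 CPM with DMSO and 124, 134 and 118 with DOX. The cystine transporter SLC7A11 rose by 3.25 and 1.82, and its difference of -1.43 fell in size to -0.31 with P11 as the baseline. CEBPB, a transcription factor of the secretory programme, rose by 2.01 at P33 and fell by 0.80 with DOX. Its difference of -2.81 was -1.39 with P11 as the baseline.

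Of 28 NRF2 targets, 21 rose and 4 fell at P33, against 38.2% and 35.7% of all genes. With DOX 14 rose and 7 fell, against 20.8% and 22.9%. Of the 28, 7 rose in both, 7 rose at P33 and fell with DOX, and 4 fell at P33 and rose with DOX. Over all genes tested these classes held 12.2%, 5.67% and 4.08%. The difference was negative for 15 and positive for 8, against 31.6% and 28.4% of all genes. The aldo-keto reductases AKR1C1, AKR1C2 and AKR1C3 fell with DOX, 1.91-fold, 2.83-fold and 2.21-fold, but they are close paralogues and their counts are uncertain. Their rises at P33 were less stable: with P11 as the baseline AKR1C2 gave 0.23 (adjusted p = 0.339) and AKR1C3 0.42 (adjusted p = 0.102), and that of AKR1C2 was also lost without P3 replicate 3 (adjusted p = 0.0634) or P33 replicate 3 (adjusted p = 0.114). Lysosomal genes were mostly lower with DOX: 29 of 44 fell and 4 rose, where 22.9% and 20.8% of all genes did. At P33, 19 fell and 15 rose, near the 35.7% and 38.2% of all genes. GLB1, which encodes the beta-galactosidase measured as a senescence stain, fell by 0.49 with DOX. Its rise of 0.16 at P33 (adjusted p = 0.0141) was lost without P3 replicate 3 or P33 replicate 2, and it overlaps genes on both strands.

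All 14 fibroblast markers were expressed in every group and moved both ways. At P33 5 rose and 7 fell, against 38.2% and 35.7% of all genes. With DOX 4 rose and 6 fell, PDGFRA by 1.00 on the log2 scale, against 20.8% and 22.9% of all genes. Their summed level, to which COL1A1 adds a mean of 14577 CPM with DOX, was between 19791 and 20628 CPM at P3 and 16493 and 18661 at P33, and between 41255 and 42580 with DMSO and 45494 and 46617 with DOX. Of 10 keratinocyte markers 4 passed the count filter, and of 8 each for endothelial, leukocyte, melanocyte or Schwann, and adipocyte or smooth muscle cells 2, 1, 2 and 2 passed. The leukocyte marker that passed, PTPRC, rose with DOX from 0.176, 0.119 and 0.115 CPM to 1.24, 1.75 and 1.31. At P33 it rose from 0.503, 0.23 and 0.194 CPM to 0.745, 0.685 and 0.703. PTPRC had few reads with DMSO and at P3 and passed the count filter through DOX and P33. Its rises are therefore in part set by that filter. The difference of PTPRC, 2.13, was lost without P3 replicate 1 (1.58, adjusted p = 0.0504). The summed leukocyte list stayed between 0.574 and 2.64 CPM in all 4 groups, and its part in the results on interferon-stimulated and cytokine genes was not tested. Of 13 mitochondrially encoded mRNAs, 5 rose at P33 and 4 with DOX, against 38.2% and 20.8% of all genes. Among immediate early genes, which can respond to handling of the cells, 15 of 28 rose and 6 fell at P33, against 38.2% and 35.7% of all genes. With DOX 7 rose and 5 fell, near the 20.8% and 22.9% of all genes. The difference was negative for 14 and positive for 3, against 31.6% and 28.4% of all genes. The part of this in the cytokine results was not tested.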

How the data were processed

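RNA-seq libraries of BJ cells were made from poly(A)-selected RNA, per the labels' protocols. The deposited table holds raw counts per gene from the authors, made with HISAT2 2.1.0 and featureCounts 2.0.1 on hg38 per the submitters' processing notes; the sources used here give neither options nor strand setting. A single edgeR 4.0.16 quasi-likelihood model (R 4.3.3) took all 21 libraries and estimated each group's mean, leaving 14 residual degrees of freedom, after TMM scaling. Genes were kept if filterByExpr (minimum count 10) passed among P3 and P33 and again among DOX and DMSO. P-values were two-sided and adjusted by Benjamini-Hochberg over 13520 genes; called means adjusted p under 0.05. The script was tested on simulated data. The comparison and the lists were chosen with earlier results of these data known, so lists carry counts and medians and no test. Named genes are a panel of 15 and, from protein-coding genes of at least 5 CPM without same-strand overlap, the 8 largest of each class, with up to 3 per list by difference and 3 by shared change; other list members, such as CDK1, IFI44, MYL9, EREG or PCNA, were named after their values were seen, and a few genes are not reported here. Leaving out replicates, DESeq2 1.42.0, other scaling, filters, a block and P11 as the baseline were tried.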

Additional observations from a re-analysis of the deposited data

How the results depend on the processing

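The counts of genes past the threshold in each of the 3 tests, both directions together, stayed within 1.5 times under all 21 alternatives, and so did the shared and opposite classes except as follows. Without genes that overlap another on the same strand (9303 tested), the DOX rises were 1823 in place of 2811, the shared rises 1099, the genes higher with DOX and lower at P33 were 329, and those at least 2-fold in each 14. A minimum count of 50 (11097 tested) gave 377 positive and 895 negative differences of at least 2-fold, 94 shared rises and 94 shared falls of at least 2-fold, and 14 and 36 opposite genes of at least 2-fold (higher and lower with DOX). No count filter (25074 tested) gave 1056 positive 2-fold differences, 383 shared 2-fold rises and 41 genes 2-fold higher with DOX and lower at P33. With P11 as the baseline of the passage effect, 899 negative differences reached 2-fold, as did 42 genes lower with DOX and higher at P33. That baseline also turned the sign of the P33 effect of CDKN2A (0.02), TP53BP1 (-0.08), KITLG (0.05), ANKRD1 (0.69), COL21A1 (-0.38), PDGFRA (-0.19), KRT10 (-0.12), CNN1 (0.58) and MT-ATP8 (-0.28), and of the difference of COL6A2 (-0.29), ABCC3 (0.46), KRT10 (0.28), CNN1 (-0.29) and MT-ATP8 (0.86). Past the threshold with that baseline were the P33 effects of ANKRD1, PDGFRA and CNN1 and the differences of COL6A2, ABCC3 and CNN1. The other turned values did not pass. The cause of these turns was not tested. The filters change which genes are tested. No pairing by replicate number was seen: same-numbered deviations correlated between -0.133 and 0.068, and differently numbered ones between -0.146 and 0.084. That cannot show whether a number marks a shared culture or day, which the labels do not say. A replicate block gave 3829 positive and 4275 negative differences against 3837 and 4273. At these depths, genes under about 1 CPM, such as CDC20 with DOX, rest on few reads.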

Other observations

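Long non-coding RNAs rose at P33 more than with DOX. Of 1231 tested, 713 rose and 109 fell at P33, against 38.2% and 35.7% of all genes. With DOX 299 rose and 90 fell, against 20.8% and 22.9%. The medians were 0.639 at P33 and 0.193 with DOX on the log2 scale. The difference was negative for 484 and positive for 116, against 31.6% and 28.4% of all genes. A gene with few reads at P3 can pass the count filter through P33, so these counts may in part be set by that filter. They were not repeated with P11 as the baseline or without overlapping genes. Long non-coding RNAs, tested or not, made up 0.945% to 0.962% of all counts in the P3 libraries and 1.82% to 2.11% at P33. Their share was 1.62% to 1.77% with DMSO and 1.57% to 1.69% with DOX. Among the 11834 protein-coding genes tested, 3645 differences were positive and 3650 negative.

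Genes of the collagen and elastic fibre list went both ways. Of 46 tested, 20 differences were positive and 20 negative, against 28.4% and 31.6% of all genes. Over the 32 without same-strand overlap 12 were positive and 17 negative with a median of -0.24, and with P11 as the baseline 16 and 21. COL11A1 and FBN2, a fibrillar collagen and a fibrillin, fell by 1.93 and 1.85 at P33 and were 0.46 and 0.25 higher with DOX. MFAP4 and COL14A1, which bind elastic and collagen fibres, rose by 1.96 and 1.38 at P33 and fell by 0.92 and 0.63 with DOX. COL11A1 and FBN2 each overlap another gene of their strand.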
